A study of Mus musculus with 24 samples.

Results

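The TGF-beta and BMP signalling genes Tgfb1, Tgfb2, Tgfb3, Tgfbr1, Tgfbr2, Acvrl1, Eng, Smad6, Smad7 and Skil were followed through tissue-resident macrophages (TRMs) of 4 organs, before and after culture. These 10 genes were chosen by name, as ligands, receptors and inhibitors of the pathway, out of 45706 genes in the count table, and all 10 were found in it. The populations were microglia (MG) of the brain, Kupffer cells (KCs) of the liver, peritoneal macrophages (PMs) and alveolar macrophages (AMs) of the lung. Each was measured by RNA sequencing in 3 ex vivo libraries from cells sorted by flow cytometry and in 3 in vitro libraries from cultured TRM-like cells (TRM-LCs), which gave 8 groups and 24 libraries.

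All groups came from female C57BL/6J mice aged 8 to 12 weeks, with no genetic change and no stimulus. Sorted MG were gated on CD45 and CD11b, KCs also on F4/80 and TIM-4, PMs on CD45, CD11b, F4/80 and CD115, and AMs on CD45, CD11b and SiglecF. The cultures were started from unsorted organ suspensions on flasks coated with polyethylenimine (PEI), and they could therefore still hold other host cells. KC-LCs and PM-LCs grew with M-CSF and MG-LCs with M-CSF and IL-34, all of them at low oxygen in a high-glucose medium. AM-LCs grew with GM-CSF under atmospheric oxygen in a glucose-free medium. Organ and culture condition therefore cannot be told apart for MG-LCs and AM-LCs, while KC-LCs and PM-LCs shared a medium and a low oxygen level. All media held fetal calf serum. Suspensions of several brains, lungs or peritoneal lavages were pooled for a flask. The labels call the 3 libraries of a group biological replicates, with no record of which mice or flasks went into each, so the p-values measure the spread between these libraries.

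TGF-beta ligands are secreted in a latent form and, once freed, bind TGFBR2, which recruits and activates TGFBR1 so that SMAD2 and SMAD3 are phosphorylated. ALK1, the product of Acvrl1, is a type I receptor for BMP9 and BMP10 that signals through SMAD1 and SMAD5, and endoglin, the product of Eng, is its co-receptor. Smad6 and Smad7 encode inhibitory Smads, Skil encodes the co-repressor SnoN, and all 3 are known feedback brakes that the pathway itself can induce. TGF-beta is required for the adult MG programme and for AM development, and BMP signalling through ALK1 is required for KC identity.

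Levels are given as read counts scaled to library size (CPM), normalised with TMM factors over all 24 libraries, and ± marks the SD over 3 libraries unless SE is written. Libraries held between 29569486 and 47105111 counts, so that a library without reads lies below at most 0.115 CPM, a limit that covers counting error only. A gene was called when the adjusted p of edgeR's quasi-likelihood test, corrected by Benjamini-Hochberg over all genes tested, was under 0.05.

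The sorted libraries held the markers of their labelled population. In sorted MG, P2ry12 averaged 5514 CPM, Tmem119 4394 CPM and Sall1 694 CPM. The summed levels of Clec4f, Timd4, Vsig4 and Cd5l were 13881 to 24793 CPM in KCs and 16.9 to 94.0 CPM in KC-LCs, those of Gata6, Alox15, Icam2 and Selp were 16229 to 18381 CPM in PMs and 78.4 to 131 CPM in PM-LCs, and those of Siglecf, Car4, Fabp1 and Chil3 were 20470 to 23411 CPM in AMs and 2440 to 9354 CPM in AM-LCs. The KC markers also summed to 3017 to 3671 CPM in sorted PMs, 215 to 2233 CPM in MG-LCs and 142 to 826 CPM in PM-LCs. KC-LCs thus held less of them than MG-LCs and PM-LCs. In groups of other populations the PM markers summed to at most 43.9 CPM and the AM markers to at most 186 CPM, both in sorted KCs. Core macrophage genes (Csf1r, Adgre1, Cd68 and Mertk) summed to at least 2044 CPM in every library, with the lowest sum in MG-LC replicate 1.

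Markers of other cell types moved with some groups. All 8 fibroblast and mesothelium markers together (Col1a1, Col1a2, Col3a1, Dcn, Lum, Pdgfra, Msln and Upk3b) reached 30934, 7.39 and 1012 CPM in the 3 MG-LC libraries, 22.9, 2208 and 365 CPM in PM-LCs, 17.0, 181 and 1667 CPM in AM-LCs and at most 29.8 CPM in KC-LCs, against at most 23.8 CPM in any sorted library. Of the 8 endothelial markers, Stab2, Cdh5 and Pecam1 carried the sum of 412 to 837 CPM in sorted KCs, where Tie1 was at 0, Emcn was at 0.0263 CPM and Tek at 0.0648 CPM on average. Only these last 3 averaged under 1 CPM there, so Kdr and Clec4g were present as well. The endothelial sum was 45.5 to 56.7 CPM in sorted MG, at most 5.58 CPM in sorted PMs and AMs, and 5.16 to 72.1 CPM in the cultures. Among sorted cells, the largest sums of the remaining lists were 235 CPM for hepatocyte genes, 132 CPM for B cell genes and 206 CPM for T cell genes in KCs, 3989 CPM for platelet genes in PMs (nearly all Pf4, with Gp1bb and Gp6 at 0), 142 CPM for neutrophil genes in KCs, 214 CPM for lung epithelium genes in AMs, 71.3 CPM for brain genes in KCs and 530 CPM for cycling genes in KC replicate 1. Among cultures they were 0.672 CPM for hepatocyte, 105 CPM for B cell, 314 CPM for T cell, 392 CPM for platelet, 735 CPM for neutrophil, 27.2 CPM for lung epithelium, 246 CPM for brain and 781 CPM for cycling genes. In bulk libraries, fewer cells of a type and less RNA per cell cannot be told apart.

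**Figure D1:**
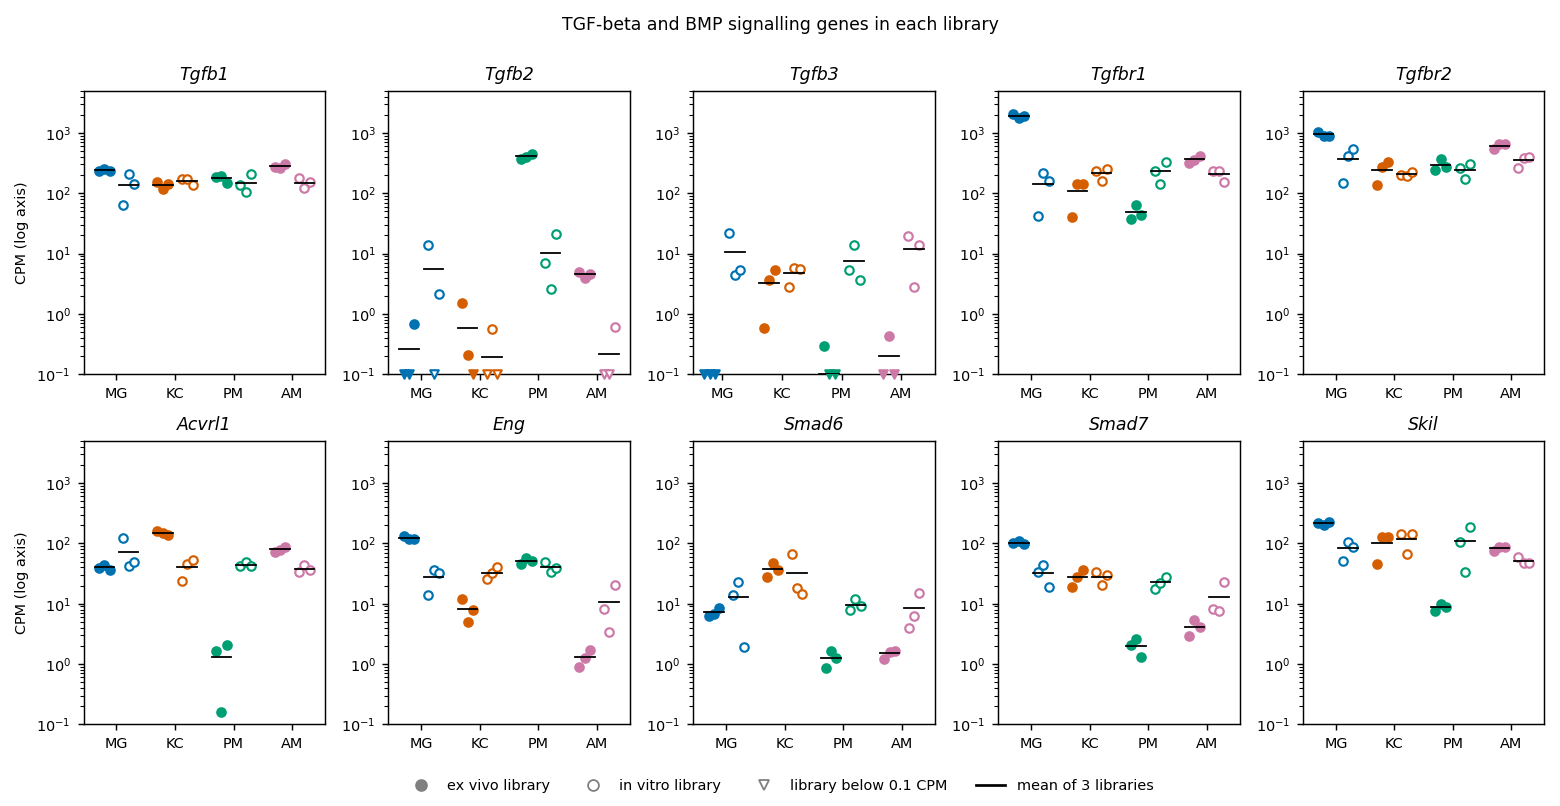
CPM (log axis) of the 10 genes in each library, by population; filled points are ex vivo and open points in vitro libraries, bars are means of 3 libraries, and triangles at the lower edge are libraries below 0.1 CPM. Tgfb2 stands out in sorted PMs at 372 to 447 CPM, Tgfbr1 in sorted MG at 1740 to 2084 CPM, and Acvrl1, Smad7 and Skil are lowest in sorted PMs.

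The promoters of Smad6 and Tgfb2 are shown because these genes set sorted KCs and PMs apart from the other sorted cells and each promoter holds a letter match to a Smad-binding sequence. RefSeq windows (GRCm38.p6) from 250 bases before to 50 bases after the start site were found for 6 of the 10 genes (Eng, Smad6, Tgfb1, Tgfb2, Tgfbr1 and Tgfbr2). No window was used here for Acvrl1, Skil, Smad7 or Tgfb3. The palindromic Smad-binding element GTCTAGAC, the shorter element CAGACA and the GC-rich motif GGCGCC were searched on both strands. GTCTAGAC was found in 1 window of the set, that of Smad6, beginning 4 bases before the start site, and in 70 of 32851 windows of all genes (0.213%). CAGACA occurred in the window of Tgfb2, 204 bases before the start site, and in 1 of the 2 windows of Tgfbr1, against 21.0% of all windows, and GGCGCC in the other window of Tgfbr1, against 11.9%. A match describes the letters and not a bound site. The sequences run 5′ to 3′ on the minus strand of GRCm38.p6, from 250 bases before to 30 bases after the start site, with the matched motif in capitals; Smad6 lies at chr9:64022030-64022309 and Tgfb2 at chr1:186705960-186706239.
Smad6: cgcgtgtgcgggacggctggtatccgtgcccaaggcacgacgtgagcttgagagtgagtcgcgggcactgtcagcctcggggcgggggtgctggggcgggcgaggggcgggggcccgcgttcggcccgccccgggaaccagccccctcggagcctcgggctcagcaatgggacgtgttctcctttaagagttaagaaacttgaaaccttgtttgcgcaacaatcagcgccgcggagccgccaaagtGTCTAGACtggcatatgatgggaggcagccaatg
Tgfb2: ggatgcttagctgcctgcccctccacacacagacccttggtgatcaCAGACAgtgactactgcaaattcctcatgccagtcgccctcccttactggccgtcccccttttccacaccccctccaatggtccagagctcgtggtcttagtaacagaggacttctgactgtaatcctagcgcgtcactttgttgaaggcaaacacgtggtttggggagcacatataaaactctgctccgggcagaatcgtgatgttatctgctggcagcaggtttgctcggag

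The sorted populations differed in most of the 10 genes, and the cultures did not differ in any by the main test. Each sorted population was first compared with the mean of the other 3 sorted populations on the log2 scale. In sorted MG 6 genes were higher (Tgfbr1, Tgfbr2, Eng, Smad6, Smad7 and Skil) and 2 lower (Tgfb2 and Tgfb3), where 26.2% of all 15732 genes tested were called higher and 25.2% lower. In sorted KCs 5 were higher (Tgfb3, Acvrl1, Smad6, Smad7 and Skil; background 24.1%) and 5 lower (Tgfb1, Tgfb2, Tgfbr1, Tgfbr2 and Eng; background 12.4%). In sorted PMs 2 were higher (Tgfb2 and Eng; background 20.8%) and 6 lower (Tgfbr1, Tgfbr2, Acvrl1, Smad6, Smad7 and Skil; background 15.1%), and in sorted AMs 3 were higher (Tgfb1, Tgfbr2 and Acvrl1; background 24.7%) and 3 lower (Eng, Smad6 and Smad7; background 21.9%). For the 10 genes together the median log2 difference was 1.05 (MG), 0.11 (KCs), -1.66 (PMs) and 0.55 (AMs), beside 0.05, 0.11, 0.02 and -0.08 over all genes tested. Without KC replicate 1, which had the lowest core macrophage sum among sorted KCs (6548 CPM against 11783 and 15168 CPM), the counts were 9 (MG), 10 (KCs), 8 (PMs) and 8 (AMs).

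Among the cultures, 0 of the 10 genes were called by edgeR's quasi-likelihood test in MG-LCs, KC-LCs, PM-LCs or AM-LCs against the mean of the other 3 cultures. At an unadjusted p under 0.05 there were 1 in MG-LCs, 1 in KC-LCs, 1 in PM-LCs and 2 in AM-LCs. The background was likewise low in MG-LCs (0.56% of 14813 genes called), KC-LCs (0.108%) and PM-LCs (0.527%), and it was 13.1% in AM-LCs. With limma-voom and with DESeq2 the counts were 0 in MG-LCs, KC-LCs and PM-LCs and 1 in AM-LCs (Eng), although DESeq2 called 10.7%, 9.30%, 6.03% and 20.1% of all genes in the 4 cultures. Without the MG-LC, PM-LC and AM-LC libraries richest in fibroblast and mesothelium markers, Eng and Smad7 were called in AM-LCs and 0 genes in the other cultures, a setting chosen after the data were seen.

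Within populations, sorted and cultured cells differed in 5 of the 10 genes (MG), 2 (KCs), 7 (PMs) and 10 (AMs). In MG 4 were higher ex vivo (Tgfbr1, Eng, Smad7 and Skil; background 21.2% of 14416 genes) and 1 was lower (Tgfb3; background 25.2%), and in KCs 1 was higher (Acvrl1; background 19.4% of 13629 genes) and 1 lower (Eng; background 14.4%) among 9 genes tested, since Tgfb2 had too few reads. In PMs 1 was higher (Tgfb2; background 12.1% of 13581 genes) and 6 lower (Tgfb3, Tgfbr1, Acvrl1, Smad6, Smad7 and Skil; background 16.8%). In AMs 6 were higher (Tgfb1, Tgfb2, Tgfbr1, Tgfbr2, Acvrl1 and Skil; background 22.9% of 13196 genes) and 4 lower (Tgfb3, Eng, Smad6 and Smad7; background 25.9%). The medians of the log2 differences, ex vivo minus in vitro, were 1.05 (MG), -0.18 (KCs), -2.61 (PMs) and 0.74 (AMs), where all genes tested had -0.03, 0.01, -0.01 and -0.04. Without the library richest in fibroblast and mesothelium markers (MG-LC replicate 1, PM-LC replicate 2 or AM-LC replicate 3), the counts were 6 in MG, 7 in PMs and 9 in AMs. In a model of all 24 libraries the change itself differed between populations for 8 of the 10 genes, where 36.3% of 17408 genes were called; Tgfb1 (adjusted p = 0.0991) and Tgfbr2 (adjusted p = 0.205) did not pass.

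**Figure D2:**
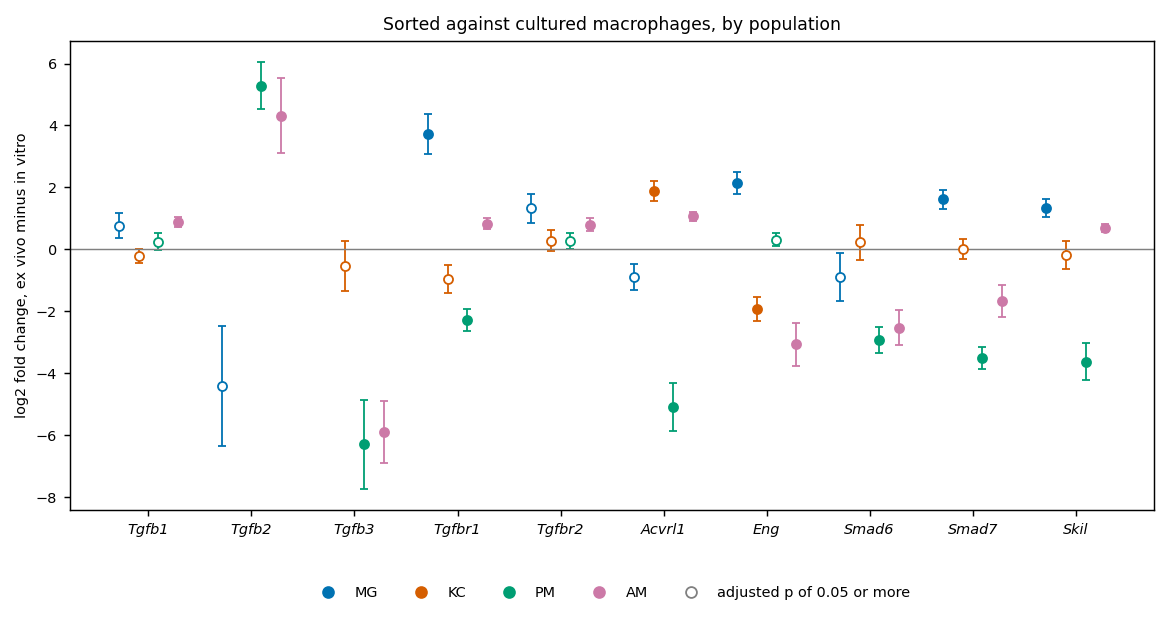
Log2 fold change, ex vivo minus in vitro, of each gene in each population, with the SE of the edgeR estimate as bars; open points had an adjusted p of 0.05 or more. Tgfb3 in MG is left out because sorted MG held no reads, and Tgfb2 in KCs because it was not tested; Tgfbr1, Eng, Smad7 and Skil lie above 0 in MG, and Tgfbr1, Acvrl1, Smad6, Smad7 and Skil below 0 in PMs.

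Among the ligands, Tgfb1 was at 64.2 CPM or more in every library, Tgfb2 was high in sorted PMs alone, and Tgfb3 was near absent from sorted MG, PMs and AMs but present in all cultures. Tgfb1 (chr7:25687002-25705077 in GRCm38) encodes the ligand that immune cells mainly make. It measured 235, 250 and 236 CPM in sorted MG, 154, 116 and 140 CPM in KCs, 188, 193 and 147 CPM in PMs and 268, 264 and 308 CPM in AMs. Sorted AMs lay above every other library of the series and sorted MG above every remaining one, while the other 6 groups overlapped with their neighbours. In the cultures it measured 64.2, 206 and 141 CPM in MG-LCs, 172, 175 and 139 CPM in KC-LCs, 136, 105 and 204 CPM in PM-LCs and 178, 123 and 151 CPM in AM-LCs. The lowest of all was MG-LC replicate 1, the library with 30934 CPM of fibroblast and mesothelium markers, whose part in this was not tested. Tgfb1 was 0.89 ± 0.16 (SE) log2 units higher in AMs than in AM-LCs (adjusted p = 0.00359), and the differences of 0.77 ± 0.41 in MG (adjusted p = 0.162), of -0.21 ± 0.22 in KCs (0.509) and of 0.24 ± 0.27 in PMs (0.541) did not pass the test. In the model of all 24 libraries the MG difference was called (adjusted p = 0.0352). Against the other sorted cells Tgfb1 was higher in AMs (0.64 ± 0.12 SE, adjusted p = 0.000792) and lower in KCs (-0.71 ± 0.13, adjusted p = 0.000955).

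Tgfb2 (chr1:186622792-186705989, minus strand), a ligand best known from development and from mesenchymal cells, measured 372, 403 and 447 CPM in sorted PMs. In the other sorted cells it measured 0.0220, 0.0811 and 0.692 CPM in MG, 1.55, 0.208 and 0 CPM in KCs and 5.05, 3.96 and 4.62 CPM in AMs. Sorted PMs stood apart from all other libraries, 8.85 ± 0.61 (SE) log2 units above the mean of the other sorted cells (adjusted p = 5.82e-07), and AMs lay above MG and KCs without overlap. The lower call of KCs (-3.72 ± 0.83 SE, adjusted p = 0.00451) was lost without MG replicate 3 (0.0709), in a range from 6.12e-05 to 0.0709. These differences rest on few reads outside PMs: without KC replicate 1 they were 9.69 (PMs), -6.18 (KCs) and -4.46 (MG), and without MG replicate 3 they were 9.68 (PMs), -2.99 (KCs) and -7.62 (MG), where the main value for MG was -5.31 and -4.68 without MG replicate 1. PM-LCs held 7.11, 2.61 and 21.4 CPM, which was 5.28 ± 0.77 (SE) log2 units below sorted PMs (adjusted p = 0.00256) and 6.42 below them without PM-LC replicate 3. MG-LCs held 14.2, 0.0747 and 2.17 CPM in the order of the fibroblast and mesothelium sums of 30934, 7.39 and 1012 CPM, KC-LCs held 0, 0.573 and 0 CPM, and AM-LCs held 0, 0.0382 and 0.610 CPM. AM-LCs too ran in the order of their sums. PM-LCs did not: replicate 2, with the highest of their sums of 22.9, 2208 and 365 CPM, was the lowest for Tgfb2. The part of those markers was not tested. Sorted MG and MG-LCs overlapped (adjusted p = 0.106), and the difference was called with DESeq2 and in the model of all 24 libraries, in a range from 0.0178 to 0.315. Sorted AMs were 4.32 ± 1.21 (SE) log2 units above AM-LCs (adjusted p = 0.0217), a call that was lost without AM replicate 1, 2 or 3 (adjusted p from 0.0628 to 0.0719, in a range of 0.000279 to 0.0719 over all alternatives). The difference was 7.74 without AM-LC replicate 3 and 3.72 without AM-LC replicate 1. PM-LCs had the highest mean among cultures, 10.4 CPM, and overlapped with MG-LCs; against the other cultures the difference of 4.01 ± 1.39 (SE) had an adjusted p of 0.212. An unnamed transcript model on the other strand, Gm29491, covers 2.14% of the exon bases of Tgfb2, and the libraries do not mark strand.

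Tgfb3 (chr12:86056745-86079041, minus strand), the remaining TGF-beta ligand, had 0 reads in the 3 sorted MG libraries. Sorted PMs held 0.301, 0 and 0 CPM, sorted AMs 0.0896, 0.435 and 0.0746 CPM and sorted KCs 0.597, 3.66 and 5.36 CPM. KCs were thus the only sorted group without overlap with the others, 6.31 ± 1.15 (SE) log2 units above their mean (adjusted p = 0.00215), a difference of 5.71 without KC replicate 3 and 7.96 without PM replicate 1. The lower call of sorted MG (adjusted p = 0.0185) was lost without MG replicate 1 (0.0560), 2 (0.0515) or 3 (0.0544) and without PM replicate 1 (1.0), in a range from 0.000508 to 1.0. All 12 cultures held reads, with 21.9, 4.48 and 5.26 CPM in MG-LCs, 2.76, 5.88 and 5.50 CPM in KC-LCs, 5.36, 13.9 and 3.70 CPM in PM-LCs and 19.7, 2.82 and 14.0 CPM in AM-LCs. MG-LCs were at least 130-fold above sorted MG, taken at a floor of 3 counts per library (0.0811 CPM; adjusted p = 0.00679), and at least 60-fold without MG-LC replicate 1, the fibroblast-rich library. The change was -5.90 ± 1.00 (SE) log2 units in AMs (adjusted p = 0.00296) and -6.29 ± 1.43 in PMs (adjusted p = 0.0162), the latter lost without PM replicate 2 (0.0590) or 3 (0.0627) in a range of 8.31e-07 to 0.0627 over all alternatives. With these few reads the PM difference was -5.50 without PM-LC replicate 2, -5.65 and -5.67 without PM replicates 2 and 3 and -11.09 without PM replicate 1, and the AM difference was -7.16 without AM replicate 2. KCs and KC-LCs overlapped (-0.52 ± 0.81, adjusted p = 0.649). The highest MG-LC and PM-LC values belonged to the libraries with 30934 and 2208 CPM of fibroblast and mesothelium markers, while AM-LC replicate 1 was higher than replicate 3, with 17.0 against 1667 CPM of those markers. Their part in the Tgfb3 level was not tested. Gm37804 and Gm48008 on the other strand cover 12.4% of the exon bases of Tgfb3, so low values of this gene are uncertain.

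Per kilobase of exon, the ligand mRNA of sorted PMs was mainly Tgfb2. Tgfb2 reached 70.3 CPM per kb and Tgfb1 34.9 CPM per kb there, which made Tgfb2 66.8% of the 3 ligands together, or 53.7% when lengths of the longest transcript were used. Tgfb1 made up 96.3% to 99.9% of the ligand level per kb in sorted KCs, AMs and MG and 87.0% to 95.8% in the cultures. Tgfb3 held 4.15% to 10.7% in the cultures and Tgfb2 at most 5.34%.

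**Figure D3:**
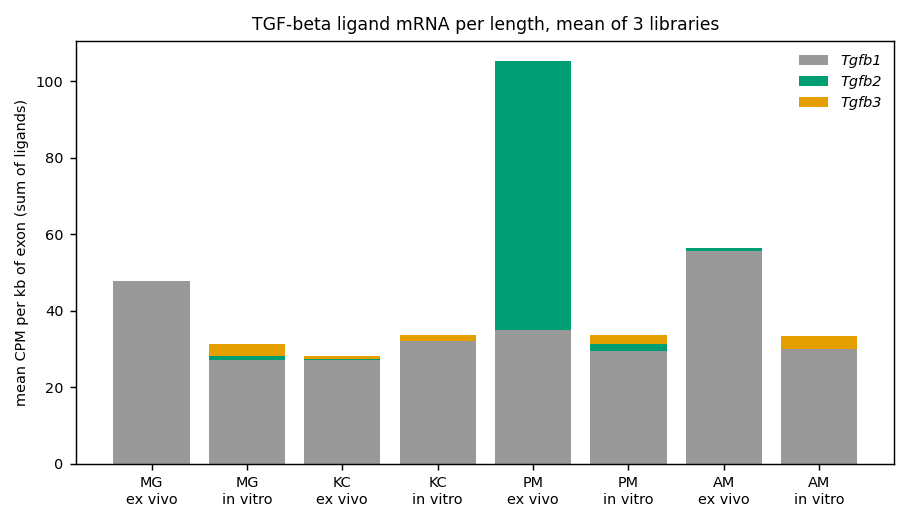
Mean CPM per kb of exon of the 3 TGF-beta ligands in each group, stacked. Sorted PMs are the only group in which Tgfb2 (70.3 CPM per kb) exceeds Tgfb1 (34.9 CPM per kb).

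Among the receptors, Tgfbr1, Tgfbr2 and Eng were highest in sorted MG and Acvrl1 in sorted KCs. Sorted PMs were lowest for Tgfbr1, overlapping with KCs, and for Acvrl1, and sorted AMs were lowest for Eng. Tgfbr1 (chr4:47353222-47414931) encodes the type I TGF-beta receptor. It measured 2084, 1740 and 1894 CPM in sorted MG, 41.1, 142 and 144 CPM in KCs, 37.9, 64.2 and 43.7 CPM in PMs and 319, 356 and 417 CPM in AMs. Sorted MG lay far above every other library, 3.89 ± 0.28 (SE) log2 units above the mean of the other sorted cells (adjusted p = 4.295e-07), and KCs and PMs overlapped at the lower end. The cultures measured 41.7, 218 and 162 CPM (MG-LCs), 238, 161 and 251 CPM (KC-LCs), 235, 142 and 329 CPM (PM-LCs) and 229, 236 and 151 CPM (AM-LCs). All 4 cultures overlapped, and the lowest value was again that of MG-LC replicate 1. The level fell in culture by 3.72 ± 0.65 (SE) log2 units in MG (adjusted p = 0.00655) and by 0.82 ± 0.18 in AMs (adjusted p = 0.00751), and it was higher in PM-LCs than in PMs, at -2.28 ± 0.36 ex vivo minus in vitro (adjusted p = 0.00353). In KCs the libraries did not overlap either, but the difference of -0.96 ± 0.46 (SE) had an adjusted p of 0.143. The AM call was lost in a model of all 24 libraries (adjusted p = 0.200, where its alternatives ran from 0.000163 to 0.200).

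Tgfbr2 (chr9:116084293-116175360, minus strand), the ligand-binding type II receptor, varied least among the receptors. It measured 1034, 904 and 896 CPM in sorted MG, 138, 273 and 325 CPM in KCs, 244, 370 and 275 CPM in PMs and 531, 664 and 644 CPM in AMs. MG lay above AMs and AMs above KCs and PMs, which overlapped. The cultures held 149, 413 and 537 CPM (MG-LCs), 199, 193 and 227 CPM (KC-LCs), 258, 173 and 301 CPM (PM-LCs) and 263, 386 and 397 CPM (AM-LCs). Sorted MG were 1.37 ± 0.21 (SE) log2 units above the other sorted cells (adjusted p = 0.000192). Sorted AMs exceeded AM-LCs by 0.80 ± 0.20 (SE; adjusted p = 0.0145), which was lost without AM replicate 2 (0.0567) or 3 (0.0528) and in the model of all 24 libraries, with alternatives from 0.00138 to 0.0934. The decrease of 1.33 ± 0.47 (SE) in MG missed the threshold (adjusted p = 0.0599). It passed without MG-LC replicate 1 (0.00737) or 3 (0.0400), with DESeq2 and in the model of all 24 libraries, in a range of 0.00546 to 0.153. The calls for PMs and AMs against the other sorted cells were the least stable: the call for PMs (-0.79 ± 0.23, adjusted p = 0.0189) was lost without PM replicate 1 (0.104) or 3 (0.0841), and that for AMs (0.59 ± 0.21, adjusted p = 0.0403) without any AM or MG library, KC replicate 2 or PM replicate 1 or 3 (from 0.0635 to 0.183).

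Acvrl1 (chr15:101128522-101145336) encodes ALK1, the BMP9 and BMP10 receptor. It measured 159, 149 and 136 CPM in sorted KCs, 72.9, 78.5 and 88.2 CPM in AMs, 39.0, 43.9 and 36.7 CPM in MG and 1.64, 0.164 and 2.09 CPM in PMs. The 4 sorted populations did not overlap, with KCs above and PMs below all other libraries of the series. KCs were 3.23 ± 0.33 (SE) log2 units above the other sorted cells (adjusted p = 1.64e-05) and PMs differed from them by -5.89 ± 0.53 (adjusted p = 5.51e-06). In sorted KCs the endothelial sum of 412, 721 and 837 CPM ran in the opposite order of the 3 libraries, and its part in the Acvrl1 level was not tested. All 4 cultures overlapped, with 123, 41.7 and 49.3 CPM in MG-LCs, 23.4, 45.9 and 53.6 CPM in KC-LCs, 42.0, 49.0 and 41.9 CPM in PM-LCs and 33.9, 43.6 and 36.1 CPM in AM-LCs. MG-LC replicate 1, with its 30934 CPM of fibroblast and mesothelium markers, was the highest of them, and the part of those markers was not tested. Acvrl1 was higher in KCs than in KC-LCs by 1.89 ± 0.33 (SE) log2 units (adjusted p = 0.00538) and in AMs than in AM-LCs by 1.07 ± 0.14 (adjusted p = 0.00101), and PM-LCs exceeded PMs, at -5.09 ± 0.77 ex vivo minus in vitro (adjusted p = 0.00305). The difference in MG of -0.89 ± 0.43 (SE) did not pass (adjusted p = 0.133). The AM call was lost in the model of all 24 libraries (adjusted p = 0.102, at the top of a range from 5.32e-09). Gm16031 on the other strand covers 2.98% of the exon bases.

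Eng (chr2:32646595-32682669), the endoglin co-receptor, measured 134, 120 and 118 CPM in sorted MG, 45.3, 57.2 and 50.2 CPM in PMs, 12.0, 4.96 and 8.01 CPM in KCs and 0.896, 1.28 and 1.74 CPM in AMs. Here too the 4 sorted populations did not overlap, with MG above and AMs below every other library of the series. MG were 3.86 ± 0.21 (SE) log2 units above the other sorted cells (adjusted p = 5.30e-08) and AMs differed by -4.83 ± 0.32 (adjusted p = 2.997e-07). KCs, which had the highest endothelial marker sums, held 4.96 to 12.0 CPM of this gene that endothelium also expresses, and the part of those cells in that level was not tested. The cultures held 13.9, 35.8 and 32.0 CPM (MG-LCs), 25.9, 31.7 and 40.4 CPM (KC-LCs), 49.9, 33.8 and 39.2 CPM (PM-LCs) and 8.13, 3.36 and 20.5 CPM (AM-LCs). Eng was higher in sorted MG than in MG-LCs by 2.14 ± 0.36 (SE; adjusted p = 0.00586), and it differed by -1.93 ± 0.40 between KCs and KC-LCs (adjusted p = 0.00912) and by -3.07 ± 0.71 between AMs and AM-LCs (adjusted p = 0.0101), the latter -2.12 without AM-LC replicate 3. PMs and PM-LCs overlapped (0.32 ± 0.21, adjusted p = 0.289). AM-LCs differed from the other cultures by -1.59 ± 0.50 (SE) log2 units, with an adjusted p of 0.0612. Exons of Fpgs on the other strand cover 1.51% of the exon bases of Eng.

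Among the inhibitors, Smad6 was highest on average in sorted KCs, Smad7 and Skil were highest in sorted MG, and all 3 were lowest in sorted PMs, where Smad6 overlapped with sorted AMs. Smad6 (chr9:63953076-64022059, minus strand), the inhibitor that acts chiefly on BMP receptors and whose promoter holds the GTCTAGAC match printed above, measured 28.1, 47.1 and 36.9 CPM in sorted KCs. It measured 6.19, 6.71 and 8.61 CPM in sorted MG, 0.869, 1.64 and 1.27 CPM in PMs and 1.23, 1.61 and 1.67 CPM in AMs. KCs lay above MG and MG above PMs and AMs, which overlapped. KCs were 3.99 ± 0.21 (SE) log2 units above the other sorted cells (adjusted p = 6.41e-08); the endothelial marker sum was also highest there, and its part was not tested. The cultures held 65.6, 18.4 and 14.6 CPM (KC-LCs), 14.0, 22.5 and 1.94 CPM (MG-LCs), 7.85, 12.0 and 9.24 CPM (PM-LCs) and 4.02, 6.15 and 15.2 CPM (AM-LCs). The spread within cultures was wide, and KC-LCs overlapped with sorted KCs (0.22 ± 0.56 SE, adjusted p = 0.783), with a sign that turned without KC-LC replicate 2 or 3. KC-LCs also overlapped with MG-LCs and AM-LCs. Their difference from the other cultures (1.67 ± 0.62 SE) had an adjusted p of 0.239, or 0.792 without KC-LC replicate 1. PM-LCs exceeded PMs, at -2.94 ± 0.42 (SE) ex vivo minus in vitro (adjusted p = 0.00240), and AM-LCs exceeded AMs, at -2.53 ± 0.57 (adjusted p = 0.00917) and -1.74 without AM-LC replicate 3. MG and MG-LCs overlapped (-0.89 ± 0.78, adjusted p = 0.377), and without MG-LC replicate 3, the lowest, the adjusted p was 0.0173 in a range up to 0.855. The call that the change differed between populations (adjusted p = 0.0341) ran from 0.00790 to 0.0856 over its alternatives and held in 15 of 29. Sorted MG were called higher than the other sorted cells (0.74 ± 0.22, adjusted p = 0.0147), although they lay below KCs, because the comparison averages log2 levels, and the call was lost without MG replicate 3 (0.0710).

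Smad7 (chr18:75367529-75395935), which blocks TGF-beta and BMP receptors alike, measured 101, 109 and 97.5 CPM in sorted MG, 19.1, 27.9 and 36.0 CPM in KCs, 2.87, 5.37 and 4.15 CPM in AMs and 2.10, 2.56 and 1.33 CPM in PMs. The 4 sorted populations did not overlap, and MG were 4.02 ± 0.21 (SE) log2 units above the other sorted cells (adjusted p = 4.33e-08) and PMs differed by -3.48 ± 0.30 (adjusted p = 3.42e-06). The cultures measured 33.9, 44.1 and 19.2 CPM (MG-LCs), 34, 20.1 and 29.8 CPM (KC-LCs), 17.6, 22.4 and 27.9 CPM (PM-LCs) and 8.26, 7.48 and 22.7 CPM (AM-LCs). MG-LCs lay below all sorted MG and PM-LCs above all sorted PMs. Ex vivo minus in vitro, the change was 1.61 ± 0.31 (SE) in MG (adjusted p = 0.00891), -3.51 ± 0.36 in PMs (adjusted p = 0.000575) and 0.02 ± 0.33 in KCs (adjusted p = 0.968). In AMs it was -1.67 ± 0.53 (adjusted p = 0.0339), a call lost without AM replicate 1 (0.113), 2 (0.0647) or 3 (0.103), without AM-LC replicate 3 (0.0768, a difference of -0.91), the AM-LC library with 1667 CPM of fibroblast and mesothelium markers, and with limma-voom, in a range from 0.00404 to 0.113.

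Skil (chr3:31095058-31122577), which encodes SnoN, measured 217, 198 and 229 CPM in sorted MG, 46.0, 130 and 128 CPM in KCs, 74.5, 85.3 and 87.1 CPM in AMs and 7.55, 9.98 and 8.81 CPM in PMs. Sorted PMs lay below and sorted MG above every other library of the series, and KCs and AMs overlapped. PMs differed from the other sorted cells by -3.76 ± 0.31 (SE) log2 units (adjusted p = 2.77e-06) and MG by 2.31 ± 0.22 (adjusted p = 5.75e-06). The call for KCs (0.93 ± 0.23, adjusted p = 0.00873) was lost without KC replicate 2 (0.0700) or 3 (0.0525), in a range from 2.06e-06 to 0.0700. The cultures held 51.4, 107 and 88.4 CPM (MG-LCs), 145, 65.5 and 143 CPM (KC-LCs), 105, 33.2 and 186 CPM (PM-LCs) and 59.3, 47.3 and 46.4 CPM (AM-LCs). Skil was higher in PM-LCs than in PMs, at -3.63 ± 0.60 (SE) ex vivo minus in vitro (adjusted p = 0.00439; -2.93 without PM-LC replicate 3), and lower in MG-LCs than in MG by 1.34 ± 0.29 (adjusted p = 0.0124). The MG call was lost without MG replicate 1 (0.0526) or 3 (0.0542), in a range from 0.000169. AMs exceeded AM-LCs by 0.68 ± 0.13 (adjusted p = 0.00491), a call lost in the model of all 24 libraries (0.262) while the difference ran from 0.62 to 0.78 over all alternatives, and KCs and KC-LCs overlapped (adjusted p = 0.785). Sorted KC replicate 1 was the lowest KC library for Tgfb3, Tgfbr1, Tgfbr2, Smad6, Smad7 and Skil and the highest for Tgfb1, Tgfb2, Acvrl1 and Eng. It also had the lowest core macrophage sum of the sorted KCs, whose part in these levels was not tested.

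The 4 population means lay closer together in the cultures than in the sorted cells for the 8 genes other than Tgfb2 and Tgfb3. Over all genes tested, 51.4%, 36.5%, 35.9% and 46.6% were called in sorted MG, KCs, PMs and AMs against the other sorted cells. Among cultures these shares were 0.56% (MG-LCs), 0.108% (KC-LCs), 0.527% (PM-LCs) and 13.1% (AM-LCs). Fewer calls among cultures were therefore not particular to these genes, and the ratios below have no all-gene ratio beside them. The highest mean exceeded the lowest 39.2-fold among sorted cells and 1.67-fold among cultures for Tgfbr1, 114-fold and 1.88-fold for Acvrl1, 94.9-fold and 3.85-fold for Eng, 51.3-fold and 2.53-fold for Smad7, 24.5-fold and 2.31-fold for Skil, and 29.7-fold and 3.89-fold for Smad6. Tgfb1 and Tgfbr2, the genes with the smallest sorted ranges, went from 2.05-fold to 1.18-fold and from 3.86-fold to 1.78-fold. No ratio is given for Tgfb2, whose lowest means rest on 1, 3 and 29 reads in sorted MG and 0, 23 and 0 reads in KC-LCs, and for Tgfb3, without reads in sorted MG, the ratio was 2.58 among cultures. These ratios are descriptions, and the spread between the 3 libraries of a culture was often as wide as the ratio: Skil in PM-LCs ran from 33.2 to 186 CPM. Levels in culture were not those of a low sorted population throughout, since Tgfbr1 in the cultures sat between sorted AMs and sorted KCs, and Acvrl1 near sorted MG.

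**Figure D4:**
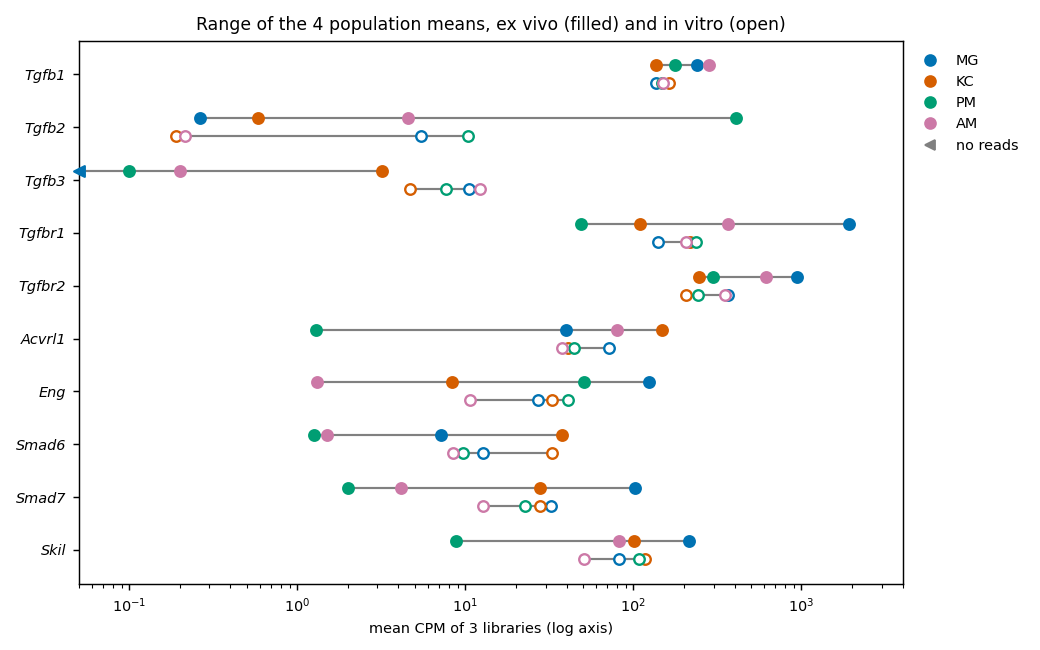
Mean CPM (log axis) of the 4 populations for each gene, ex vivo as filled points on the upper line and in vitro as open points on the lower line; the triangle marks Tgfb3 in sorted MG, which had no reads. The open points lie closer together than the filled ones, for example 141 to 235 CPM against 48.6 to 1906 CPM for Tgfbr1.

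**Figure D5:**
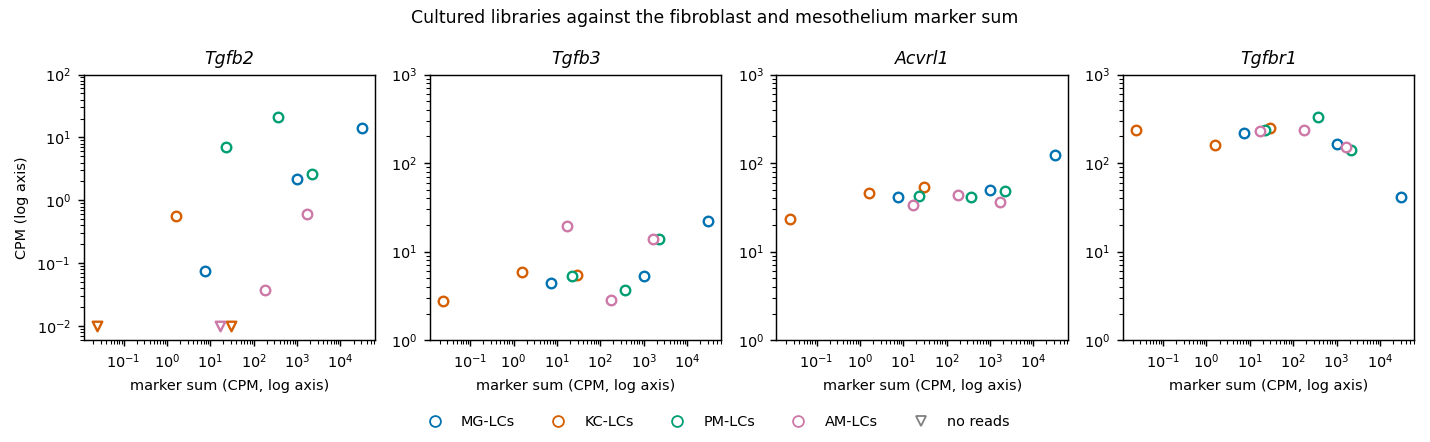
CPM (log axis) of Tgfb2, Tgfb3, Acvrl1 and Tgfbr1 in the 12 cultured libraries against the summed CPM of 8 fibroblast and mesothelium markers (log axis); triangles are libraries without reads of the gene. MG-LC replicate 1, at 30934 CPM of markers, has the highest Tgfb3 (21.9 CPM) and Acvrl1 (123 CPM) and the lowest Tgfbr1 (41.7 CPM) of the cultures.

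A list of 83 other genes of the pathway held calls in both directions in every population. Of 55 tested in MG, 16 were higher ex vivo and 24 lower; of 51 tested in KCs, 5 and 11; of 55 in PMs, 9 and 18; and of 55 in AMs, 15 and 20, with median log2 differences of -0.91, -0.32, -0.17 and -0.37. These calls are 72.7%, 31.4%, 49.1% and 63.6% of the genes tested, where 46.4%, 33.8%, 28.9% and 48.7% of all genes were called in either direction in MG, KCs, PMs and AMs, so the share in KCs was near that of all genes. Of the receptors other than the 4 above, 5 of 10 tested were higher ex vivo and 3 lower in MG, and 5 of 11 were higher and 1 lower in AMs. Called were thus 80.0% in MG and 54.5% in AMs, beside 46.4% and 48.7% of all genes. Acvr2b, an activin type II receptor, averaged 23.6 ± 1.29 CPM in sorted MG against 1.99 ± 1.2 CPM after culture (log2 difference 3.53, adjusted p = 0.00328), and Acvr1b, an activin type I receptor, was 22.9 ± 1.22 CPM in AMs and 2.34 ± 0.13 CPM in AM-LCs (3.28, adjusted p = 7.12e-05). Secreted antagonists were lower ex vivo in 4 of 4 tested in MG, 1 of 4 in KCs, 2 of 3 in PMs and 6 of 6 in AMs, where 25.2%, 14.4%, 16.8% and 25.9% of all genes were lower. In MG and AMs they included Dcn, and in AMs also Grem1, both of which fibroblasts make. Dcn measured 5583, 2.14 and 91.6 CPM in MG-LCs and 9.70, 52.2 and 609 CPM in AM-LCs, in step with the marker sum of which it is a part. Grem1 measured 2.09, 9.77 and 129 CPM in AM-LCs. Fstl1 measured 371, 591 and 452 CPM and Twsg1 95.8, 75.6 and 100 CPM in AM-LCs, not in the order of that sum. In MG-LCs Fstl1 followed it (3000, 1.94 and 106 CPM). Both were named after their values were seen. Twsg1 was lower ex vivo in MG (adjusted p = 0.0145), KCs (0.00722), PMs (0.000781) and AMs (0.000202). Without AM-LC replicate 3, Dcn (adjusted p = 0.00285) and Grem1 (0.00438) stayed called in AMs, as did Dcn in MG without MG-LC replicate 1 (0.0086). The part of fibroblast RNA in these calls was not tested. Without MG replicate 1, 2 or 3 the MG count fell from 40 to 20, 19 or 21, and without PM replicate 1, 2 or 3 the PM count fell from 27 to 18, 19 or 18.

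Of the latency and activation genes, 5 of 9 tested were lower ex vivo in MG and 3 of 8 in KCs, 3 were higher and 4 lower of 10 in PMs, and 2 were higher and 3 lower of 8 in AMs. Called in either direction were 55.6%, 37.5%, 70.0% and 62.5% of these few genes in MG, KCs, PMs and AMs. The all-gene shares were 46.4%, 33.8%, 28.9% and 48.7%, so the share in KCs was near that of all genes. In PMs the lower genes were Itgav, Itgb8, Lrrc32 and Ltbp3, and the higher ones were Emilin1, Ltbp1 and Thbs1, of which Ltbp1 and Thbs1 were named by rule and the others after their values were seen. Ltbp1, which binds latent TGF-beta to the matrix, measured 1703, 2173 and 1671 CPM in sorted PMs and 13.6, 7.34 and 10.4 CPM in PM-LCs (log2 difference 7.47 ± 0.33 SE, adjusted p = 2.63e-05), and Thbs1, an activator of latent TGF-beta, measured 4952, 6156 and 2980 CPM in PMs and 53.8, 383 and 490 CPM in PM-LCs (3.91 ± 0.78, adjusted p = 0.00985). Ltbp2 had no reads in sorted MG and 433, 4.78 and 44.3 CPM in MG-LCs, again in the order of the fibroblast and mesothelium sum. Its call in MG (adjusted p = 0.0244) held without MG-LC replicate 1 (0.0120), and the part of those markers was not tested. Among intracellular brakes, 7 of 13 tested were higher in sorted MG and 3 lower, so 76.9% were called, beside 46.4% of all genes. Pmepa1, a TGF-beta-induced inhibitor, measured 371, 429 and 429 CPM in MG against 68.8, 3.51 and 5.68 CPM after culture (3.91 ± 1.21 SE, adjusted p = 0.0393), and the difference was 6.43 (adjusted p = 0.000135) without the fibroblast-rich MG-LC replicate 1. In KCs the ubiquitin ligases Smurf1 and Smurf2, which degrade receptors and Smads, were 54.6 ± 11.3 and 37.1 ± 9.82 CPM ex vivo and 26.8 ± 1.42 and 13.9 ± 1.92 CPM in vitro (log2 differences 1.06 and 1.45, adjusted p = 0.0137 and 0.00817). Gdf3 and Gdf15, ligands of the same superfamily, were higher in KC-LCs than in KCs, with 294, 243 and 135 CPM against 1.19, 2.75 and 6.27 CPM for Gdf3 (-6.00 ± 0.69 SE, adjusted p = 0.00121) and 84.3, 235 and 266 CPM against 14.4, 5.11 and 3.22 CPM for Gdf15 (-4.65 ± 0.71, adjusted p = 0.00330). These rises were not particular to KCs. Gdf3 was also higher in PM-LCs than in PMs (-7.90 ± 0.94, adjusted p = 0.00107) and in MG-LCs than in MG (-10.74 ± 1.97, adjusted p = 0.00768). Gdf15 was also higher in MG-LCs (-8.18 ± 0.94, adjusted p = 0.00204) and PM-LCs (-7.84 ± 0.52, adjusted p = 9.78e-05). Sorted AMs had no reads of Gdf3, and AM-LCs averaged 7.32 CPM. Apart from Gdf3 in PMs, these further results were named after their values were seen.

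Target genes of the pathway did not move as a block. Of 9 tested in MG 6 were lower ex vivo and of 7 tested in KCs 2 were lower, while 5 of 8 were lower and 2 higher in PMs and 3 of 8 were lower and 2 higher in AMs. Called in either direction were 66.7%, 28.6%, 87.5% and 62.5% of these few genes, beside the all-gene shares of 46.4%, 33.8%, 28.9% and 48.7%. Id3, a BMP target, measured 0.683, 0.352 and 0.573 CPM in sorted MG and 432, 946 and 69.5 CPM in MG-LCs, and it was lower ex vivo in MG (adjusted p = 0.00244), PMs (4.97e-05) and AMs (0.00823) but not called in KCs (0.109), where it measured 583 CPM ex vivo and 941 CPM in vitro on average. The 2 target genes called lower in KCs were Id1 and Junb. Id1 averaged 49.6 CPM ex vivo and 185 CPM in vitro there (-1.87 ± 0.31 SE, adjusted p = 0.00451). Junb averaged 298 and 1144 CPM (-1.91 ± 0.45, adjusted p = 0.0151). Klf10, a TGF-beta-induced repressor, was higher in sorted AMs, with 373, 389 and 367 CPM against 36.3, 49.4 and 53.5 CPM in AM-LCs (3.00 ± 0.19 SE, adjusted p = 7.54e-05). It was also higher in PMs than in PM-LCs (1.28 ± 0.25 SE, adjusted p = 0.00834). In MG it went the other way, as Id3 did, with 16.8 CPM ex vivo and 136 CPM in vitro on average (-3.06 ± 0.39 SE, adjusted p = 0.00264). Ccn2, a further TGF-beta target, was at 0.323, 152 and 10.5 CPM in PM-LCs and near 0 in PMs, and its highest value was in the PM-LC library with 2208 CPM of fibroblast and mesothelium markers. Its call in PMs (adjusted p = 0.0179) held without that library (0.00948), and the part of those markers was not tested. Smad3, the TGF-beta effector, was highest in sorted MG at 138 CPM on average and was 69.3 CPM in PMs, 13.2 CPM in KCs and 0.690 CPM in AMs. Id1, Id3, Junb and Smad3 were singled out after their values were seen.

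The genes whose log2 CPM ran most closely with each gene across the 24 libraries were named by Pearson correlation, as a description that rests on groups of 3 libraries and on shared depth and scaling. Smad7 was closest to Olfml3 (r = 0.921), B4galt4 (0.902) and Fads1 (0.893), and Skil to Itgb5 (0.940), Rab3il1 (0.929) and Rnf180 (0.897), all highest in sorted MG. Tgfbr1 was closest to Tmem135 (0.914), Nmt1 (0.904) and Med22 (0.897), and Tgfbr2 to Tmem64 (0.886), Ube2h (0.875) and Acss1 (0.870), also highest in sorted MG. Eng was closest to Arhgef10l (0.933), Susd3 (0.926) and Trp53cor1 (0.921), and Acvrl1 to Actn1 (0.904), Dtx3 (0.897) and Clec4a2 (0.893). Tgfb2 was closest to Mst1r (0.894), Ltbp1 (0.861) and Prg4 (0.852), all highest in sorted PMs, and Smad6 to Gdpd5 (0.835), Paox (0.809) and Anapc15 (0.802), all highest in sorted KCs. For Tgfb3, Sdc2 (0.915) and Mmp12 (0.909) followed a gene without a symbol, and were highest in AM-LCs. Tgfb1, with the smallest range, was closest to Sash3 (0.882), Ppp6r1 (0.879) and Stk4 (0.877).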

How the data were processed

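RNA-seq counts of 24 libraries in 8 groups of 3 were analysed. The authors extracted RNA with the RNeasy Micro kit, made unstranded SMARTer v4 and Nextera XT libraries and sequenced single reads. The study's methods give Trimmomatic, STAR and mm10; the submitters' processing notes name Trimmomatic 0.36, STAR 2.5.2b and hg19, but all identifiers are mouse Ensembl genes. The authors deposited raw counts per gene, with no normalization, and 0 columns were left unused. Reads per gene were counted with STAR. The study tested with limma-voom, which was run as an alternative.

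Coordinates and exon lengths came from GENCODE vM21 (GRCm38), which gave 45143 of 45706 identifiers a symbol, and promoters from RefSeq GRCm38.p6. With edgeR 4.0.16 (R 4.3.3), genes passed filterByExpr (minimum count 10), were TMM-normalized and tested by the quasi-likelihood F-test with Benjamini-Hochberg adjustment over all genes tested. SEs were derived from the fold change and its F statistic. Sorted and cultured cells were compared within each population, each population with the mean of the other 3 among sorted and among cultured libraries, and the interaction in all 24. Log2 CPM used a prior count of 2. Between 3 and 3 libraries an exact permutation test cannot go below p = 0.1, so none was used. The procedure was tested on simulated data.

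Replicates of a group differed by more than sampling noise (chi-square per degree of freedom 12.9 to 845), and 0 pairs were identical. Alternatives were limma-voom 3.58.1, DESeq2 1.42.0, RLE size factors, no filter or 1 CPM in 3 libraries, a further log2 fold change limit of 1.5, a replicate block, all 24 libraries in 1 model and each library left out. The 10 genes and all gene and marker lists were chosen with earlier results of these data known. Genes named are the 10, the 3 most correlated with each, marker genes, and for each population and direction the 2 pathway genes of largest called change whose libraries did not overlap and whose log2 CPM averaged over 3, with exceptions marked. The summed MG markers are not reported here.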

Additional observations from a re-analysis of the deposited data

Results flagged for a closer look

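For 8 of the 10 genes the change between sorted and cultured cells differed between populations in the interaction test of all 24 libraries, which is why they are listed here. The adjusted p values were 0.00675 for Tgfb2, 0.00529 for Tgfb3, 1.655e-05 for Tgfbr1, 4.86e-06 for Acvrl1, 3.57e-05 for Eng, 0.0341 for Smad6, 1.196e-05 for Smad7 and 6.19e-05 for Skil. In Tgfbr1, Acvrl1, Eng, Smad7 and Skil the called changes ran in opposite directions in different populations: Tgfbr1, Smad7 and Skil fell with culture in MG and were higher in PM-LCs than in PMs, Acvrl1 fell in KCs and AMs and was higher in PM-LCs than in PMs, and Eng fell in MG and was higher in KC-LCs and AM-LCs than in KCs and AMs. Tgfb2, Tgfb3 and Smad6 were called in a single direction. The call of Smad6 held in 15 of 29 alternatives. The calls of the other 7 held in all 29.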

How the results depend on the processing

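Counts of called genes among the 10 changed by over 1.5 times, or from 0, in a few settings. With all 24 libraries in 1 model, 8 were called between sorted and cultured MG in place of 5, and 6 in AMs in place of 10; with a log2 fold change above 1.5 required as well, 5 were called in AMs. AM-LCs against the other cultures gave 0 in the main test, 1 with limma-voom, 1 with DESeq2 and 2 without the 3 fibroblast-rich cultures. With AM-LCs left out, a setting also chosen after the data were seen, the other 3 cultures still gave 0 each. Over all genes, the calls in MG-LCs, KC-LCs, PM-LCs and AM-LCs were 83, 16, 78 and 1939 with edgeR, 84, 3, 99 and 1915 with limma-voom, and 1601, 1437, 932 and 3205 with DESeq2. With each library left out in turn, the counts between sorted and cultured cells ran from 4 to 7 (MG), 2 to 2 (KCs), 6 to 7 (PMs) and 7 to 10 (AMs). Among sorted cells they ran from 6 to 10 (MG), 9 to 10 (KCs), 7 to 8 (PMs) and 5 to 8 (AMs), and for the interaction from 7 to 9. They stayed at 0 for MG-LCs, KC-LCs and PM-LCs and ran from 0 to 2 for AM-LCs (2 without AM-LC replicate 3, and 1 without MG-LC replicate 1 or PM-LC replicate 2). Pathway genes called ran from 19 to 50 (MG), 12 to 19 (KCs), 18 to 34 (PMs) and 33 to 42 (AMs).

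Left-out libraries moved uncalled differences in KCs from -0.15 to 1.18 for Smad6, -0.20 to 0.22 for Smad7 and -0.50 to 0.16 for Skil. The sign turned for uncalled differences in KCs: Smad6 to -0.09 without KC-LC replicate 2 and -0.15 without KC-LC replicate 3; Smad7 to -0.00775 with no filter, -0.20 without KC replicate 3, -0.20 without KC-LC replicate 2 and -0.0159 with all 24 libraries in 1 model; Skil to 0.16 without KC replicate 1. RLE size factors moved the median of all genes by less than 0.05 log2 units in each comparison.

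Replicate numbers are shared between groups, but same-numbered libraries did not deviate together (12 correlations of deviations from -0.104 to 0.0558, 0 above 0.1). With the replicate number as a block, the counts between sorted and cultured cells were 5 (MG), 2 (KCs), 7 (PMs) and 10 (AMs), those among sorted cells 8, 10, 8 and 7, 0 in each culture and 7 for the interaction. With 3 libraries a group, differences inside the spread of a culture were not detectable.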
